A study of Homo sapiens with 48 samples.

Results

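RELB regions called after 6 h of TWEAK at which neither RELA after TNFα nor RELA or RELB in vehicle had been called were examined in L3.6pl cells, an established human pancreatic cancer line. The members were chosen by peak calls in the same series: a region of the RELB list at 6 h of TWEAK on chromosomes 1 to 22 or X was kept where it overlapped, by as little as 1 bp, no region of the RELA lists after 30 min or 6 h of TNFα and no region of the RELA or RELB lists of vehicle-treated cells. Of 4038 RELB regions, 373 were members (9.24%, exact 95% interval 8.36 to 10.2). By the self-match of the sequence around the summit, 184 members lay outside tandem repeats and 189 lay in them (50.7%, 45.5 to 55.9). The other 3665 RELB regions divided into 1452 outside and 2213 in tandem repeats (60.4%, 58.8 to 62.0).

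The cells had been treated with PBS as the vehicle, TNFα or TWEAK, and chromatin was precipitated for RELA, RELB and acetylated lysine 27 of histone H3 (H3K27ac) at 30 min and 6 h and in vehicle, and for FOSL1 in vehicle alone. Each of the 16 conditions had 3 samples, 48 in all, and the deposited files held 1 peak list per condition made from merged replicates. No value per sample and no read depth could therefore be given, and the intervals and tests below count regions, which are not replicates of a condition. Peak names in the RELA list after 30 min of TNFα carried the label of replicate 1, and it could not be settled whether that list held 1 replicate or 3. A region missing from a list was below that list's calling threshold, which does not show that the protein was absent.

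TNFα activates canonical NF-κB signaling, in which RELA, usually paired with p50, is released from IκB proteins and enters the nucleus within minutes. TWEAK is a TNF family ligand that stabilizes the kinase NIK, so that the precursor p100 is processed to p52 and RELB-p52 dimers accumulate over hours. The dimers recognize κB sites, short G-rich and C-rich elements. FOSL1 is an AP-1 subunit that binds TGAGTCA or its reverse complement TGACTCA, and H3K27ac marks active enhancers and promoters.

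At the strongest members outside tandem repeats, a match to the NF-κB consensus was not a general property. Of the 12 members with the highest deposited fold enrichment (ChIP over background, as the peak caller gave it), 4 had a match to the NF-κB consensus within 100 bp of the summit. These 4 are printed first, on the plus strand of hg38, followed by the κB-bearing members within 50 kb of ICAM1, ARL14 and PRR12, and by 2 of the strongest members without a κB match. Capitals mark κB matches of 10 letters and AP-1 matches of 7 letters.
TTLL4 (chr2:218733928-218734007): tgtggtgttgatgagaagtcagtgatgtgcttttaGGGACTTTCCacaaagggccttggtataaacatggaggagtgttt
ZFP64 (chr20:52031960-52032039): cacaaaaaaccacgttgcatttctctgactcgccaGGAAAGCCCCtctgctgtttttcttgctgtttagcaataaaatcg
ABHD8 (chr19:17312095-17312174): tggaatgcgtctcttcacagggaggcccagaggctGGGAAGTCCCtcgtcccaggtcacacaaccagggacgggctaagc
LDLRAD4 (chr18:13375415-13375494): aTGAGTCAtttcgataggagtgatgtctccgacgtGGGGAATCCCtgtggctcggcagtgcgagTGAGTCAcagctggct
ICAM1 (chr19:10260132-10260211): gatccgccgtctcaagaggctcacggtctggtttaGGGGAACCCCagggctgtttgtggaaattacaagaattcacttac
ARL14 (chr3:160666283-160666362): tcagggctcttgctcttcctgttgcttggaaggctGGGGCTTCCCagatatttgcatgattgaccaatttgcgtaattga
PRR12 (chr19:49614673-49614752): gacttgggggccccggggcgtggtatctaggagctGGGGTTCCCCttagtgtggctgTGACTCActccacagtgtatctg
ZNF726 (chr19:23957689-23957768): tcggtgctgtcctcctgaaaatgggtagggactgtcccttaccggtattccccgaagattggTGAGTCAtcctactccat
ITGA3 (chr17:50045371-50045450): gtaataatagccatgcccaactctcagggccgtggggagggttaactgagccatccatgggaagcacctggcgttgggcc
The κB matches near TTLL4, ZFP64, ABHD8 and LDLRAD4 were centred 22 bp or less from the summit. LDLRAD4 had an AP-1 match on each side of its κB match, and PRR12 had 1 AP-1 match 3′ of it. The match near ICAM1 was centred 67 bp from the summit and that near ARL14 88 bp.

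Outside tandem repeats, members were weaker RELB peaks than the rest of the list. Their fold enrichment ran from 1.95 to 15.7 with a median of 5.79, against a median of 7.28 for the other 1452 regions, where the highest value was 41.4. Their median length was 145 bp against 182 bp, and their median GC content within 100 bp of the summit was 48% against 51.5%. These values come from the list that chose the members and are given as a description.

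Outside tandem repeats, few members lay close to the edge of the rule. The median distance from a member outside tandem repeats to the nearest region of the excluded lists was 57682 bp, and 29 of 184 had one within 10000 bp. Just inside the rule there were the members nearest to MAP2K3 and FGF18, with gaps of 40 and 99 bp. Just outside it, the smallest overlap of any other RELB region outside tandem repeats was 9 bp, and 1 region overlapped by under 10 bp. In tandem repeats the smallest gap was 30 bp, and 35 of 189 members had an excluded-list region within 500 bp. Of the 1452 other regions, 1309 overlapped RELA after 30 min of TNFα, 1306 RELA after 6 h of TNFα, 328 RELA in vehicle and 199 RELB in vehicle.

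The strongest members were not alike. The region 10699 bp from ITGA3, which encodes an integrin α subunit, had a RELB fold enrichment of 12.04 with no FOSL1 peak and no H3K27ac peak in any list. ZNF726 had 12.2 with FOSL1 at 9.79 and an H3K27ac peak after 6 h of TWEAK alone, at 3.18. NPY4R2 had 11.7 and likewise an H3K27ac peak after 6 h of TWEAK alone, but its sequence was repeated elsewhere in the reference, with a median of 2 copies for its 31-base words. A further 8 of the 12, near TTLL4, ZFP64, DCLK2, ABHD8, PDC, LDLRAD4, LIPC and METRN, had fold enrichments of 8.55 to 9.24. Thus the strongest members ranged from fully acetylated FOSL1 regions to regions with no other mark measured here.

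Members outside tandem repeats were nearly absent from the RELA and RELB lists that the rule did not use. Of 184, 1 overlapped RELA after 30 min of TWEAK, where 28.7% of all 1636 RELB regions outside tandem repeats did. RELA after 6 h of TWEAK overlapped 3 members, against 20% of all regions. RELB after 30 min of TNFα overlapped 1, against 5.81%, and RELB after 30 min of TWEAK overlapped 3, against 5.01%. RELB after 6 h of TNFα overlapped 4, against 20.8%. In total 174 members were in none of these 5 lists, and 10 of 184 were in at least 1 (5.43%, 2.64 to 9.77). Among the other regions 668 of 1452 were (46.0%, 43.4 to 48.6). The 5 lists share antibodies and cells with the lists that chose the members, so these counts were not tested.

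The 10 members found in a further list were of different kinds. Those nearest to HAS2, TUT7 and TFDP2 lay in sequence whose 31-base words occur in 1 copy; each was shared with RELB after 6 h of TNFα, with fold enrichments there of 4.14, 4.46 and 3.77, and each had a FOSL1 peak. HAS2 encodes a hyaluronan synthase and TFDP2 a partner of E2F factors. Another 6, nearest to DONSON, ANKRD30B, PCDH10, SRGAP2C, ZNG1F and TPTE, lay in sequence with a median of 3.5 to 5551 copies. The DONSON region was in 3 lists, at 11.5 for RELA after 6 h of TWEAK, 8.86 for RELB after 30 min of TNFα and 9.41 for RELB after 30 min of TWEAK. None of the 10 had a κB match within 100 bp of the summit, where 37.0% of the 184 members and 63.1% of all 1636 RELB regions did.

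**Figure D1:**
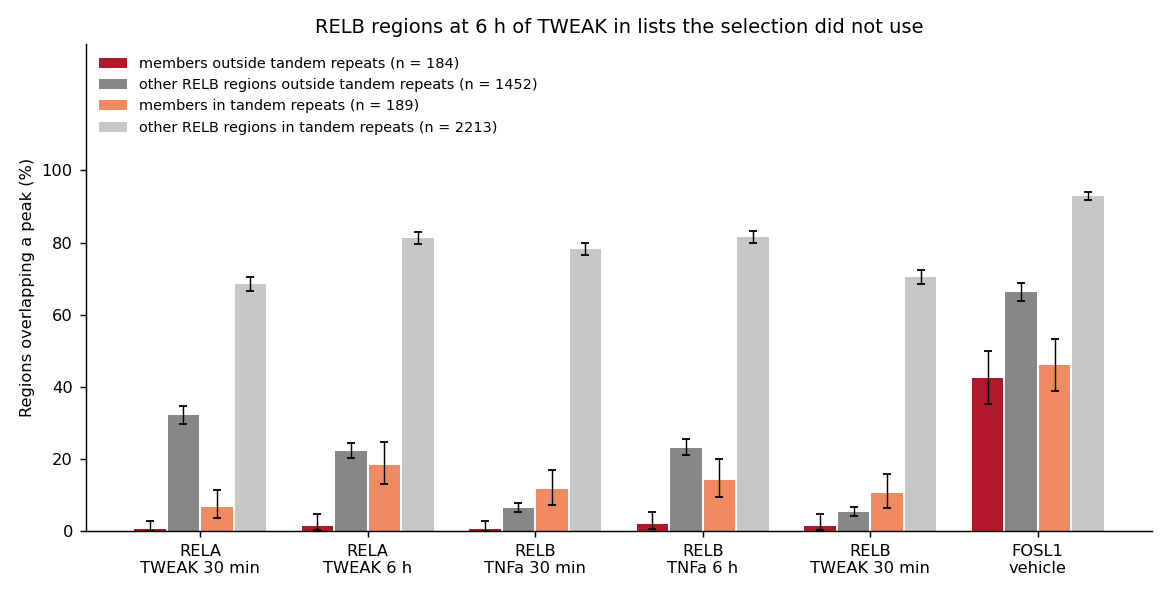
Share of RELB regions at 6 h of TWEAK (y axis, percent) that overlapped a peak of each list named on the x axis, with exact 95% intervals over regions. Members outside tandem repeats stayed at or under 4 of 184 in the 5 RELA and RELB lists and reached 78 of 184 for FOSL1, while other RELB regions in tandem repeats were in most lists.

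Matches to the NF-κB consensus were less frequent at members than at the other RELB regions. A match to the NF-κB consensus lay within 100 bp of the summit, on either strand, in 68 of 184 members outside tandem repeats (37.0%, 30.0 to 44.4) and in 965 of 1452 other regions (66.5%, 63.97 to 68.9). The odds ratio was 0.30 (0.21 to 0.41), with p = 1.39e-13 by Fisher's exact test, two-sided, Benjamini-Hochberg adjusted over 6 tests. By the rule, every other region also overlapped a RELA or RELB region of an excluded list, and no member did. The sets were thus separated by NF-κB calls, and the p-value is not independent of that selection. For scale, 1052 of 47957 FOSL1 regions outside tandem repeats that no RELA or RELB list contained had a match (2.19%). Members with a match had a median RELB fold enrichment of 5.94, and those without one 5.55. Within 5 equal bins of RELB fold enrichment the odds ratio was 0.34.

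The matches in members lay close to the RELB summits. The median distance from summit to the nearest match was 20 bp in the 68 members, 14 bp in the 965 other regions and 48 bp in the FOSL1 comparison regions. Matches centred within 25 bp of the summit were found in 42 of 68 members (61.8%), 738 of 965 other regions (76.5%) and 288 of 1052 comparison regions (27.4%).

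**Figure D2:**
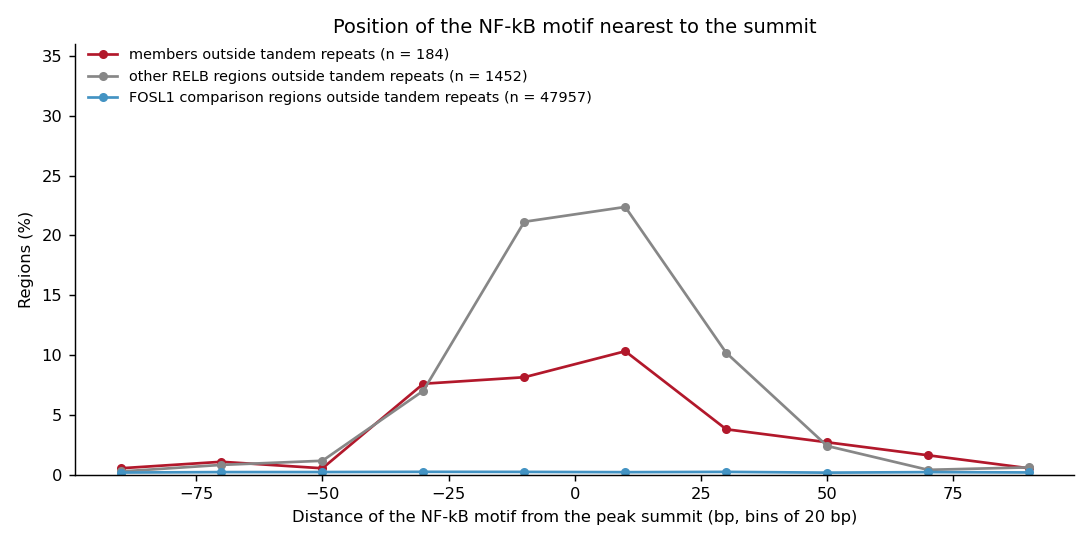
Share of regions (y axis, percent) whose NF-κB match nearest to the summit fell in each bin of 20 bp (x axis, distance in bp; negative values are towards lower coordinates). Members outside tandem repeats peaked at the summit with 10.3% in the bin from 0 to 20 bp, below the 22.4% of the other RELB regions, and the FOSL1 comparison regions were flat near 0.2%.

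One κB variant made up a larger share of the κB matches in members than in the other RELB regions. The shares are of matches, not of regions: the 184 members held 69 matches and the 1452 other regions 1197. The most common 10-letter match was GGGGCTTTCC, read on the strand that begins with GGG, with 14 of 69 matches (20.3%). It made up 74 of 1197 matches in the other RELB regions (6.18%) and 13 of 1128 in the FOSL1 comparison regions (1.15%). In the other RELB regions the most common match was GGGACTTTCC, with 153 of 1197 (12.8%), which was second in the members with 7 of 69 (10.1%). The variant was singled out after the counts were seen, so no test is given.

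The 14 members with GGGGCTTTCC were spread over 13 chromosomes, and 13 of them lay in sequence whose 31-base words occur in 1 copy. The match was within 25 bp of the summit in 8, and 4 had a FOSL1 peak. Their RELB fold enrichment ran from 4.67 to 9.18 with a median of 5.59. The strongest was the region near ZFP64, printed above, where the match reads as its reverse complement GGAAAGCCCC. FLYWCH1 followed at 7.53, RASSF3, a Ras-association domain protein gene, at 6.81, SLC12A7, a potassium-chloride cotransporter gene, at 6.67, and ETS2, an ETS family transcription factor gene, at 6.37, although the ETS2 region was 183345 bp from its start site.

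The share of members with an AP-1 match did not pass the test against the other RELB regions. TGAGTCA or TGACTCA lay within 100 bp of the summit in 63 of 184 members (34.2%, 27.4 to 41.6), in 432 of 1452 other regions (29.8%, 27.4 to 32.2) and in 20696 of 47957 FOSL1 comparison regions (43.2%). The odds ratio of members against other regions was 1.23 (0.87 to 1.72), with adjusted p = 0.233 by Fisher's exact test. Within 5 equal bins of RELB fold enrichment it was 1.52, with an unadjusted p of 0.0153, so the call depended on whether peak strength was held fixed. Both a κB and an AP-1 match were present in 23 of 184 members (12.5%) and 256 of 1452 other regions (17.6%).

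Other motifs gave values on both sides of the remaining RELB regions. The TEAD motif GGAATG was found in 31 of 184 members (16.8%), 226 of 1452 other regions (15.6%) and 7064 of 47957 comparison regions (14.7%). The GC box GGGCGG was found in 15 members (8.15%), 259 other regions (17.8%) and 7233 comparison regions (15.1%). TGTGGTT, the RUNX motif, was found in 9 members (4.89%) and 73 other regions (5.03%). The CRE motif TGACGTCA and the ETS motif CCGGAAGT were found in none of the 184 members and in 14 (0.96%) and 7 (0.48%) of the other regions, shares at which few or no matches would be met in 184.

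Basal FOSL1 binding was less frequent at members. A FOSL1 peak in vehicle overlapped 78 of 184 members outside tandem repeats (42.4%, 35.2 to 49.9) and 964 of 1452 other regions (66.4%, 63.9 to 68.8), where 63.7% of all regions did. The odds ratio was 0.37 (0.27 to 0.51), with adjusted p = 1.74e-09 by Fisher's exact test. Where FOSL1 was called, its own fold enrichment had a median of 7.87 in the members and 6.82 in the other regions. The difference in share was thus not matched by lower FOSL1 enrichment where a peak was present.

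FOSL1 peaks and κB matches divided the members into 4 classes. A κB match with FOSL1 was present in 25 members (13.6%), a κB match without FOSL1 in 43 (23.4%), FOSL1 without a κB match in 53 (28.8%), and neither in 63 (34.2%, 27.4 to 41.6). Among the other RELB regions neither was present in 97 of 1452 (6.68%, 5.45 to 8.09). In the members with FOSL1, κB matches were found in 25 of 78 (32.1%) and AP-1 matches in 42 of 78 (53.8%). In those without FOSL1, κB matches were found in 43 of 106 (40.6%) and AP-1 matches in 21 of 106 (19.8%).

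Some members outside tandem repeats also lay in sequence with further copies in the reference. The median 31-base word within 100 bp of the summit occurred in more than 1 copy in the reference in 36 of 184 members (19.6%, 14.1 to 26.04) and in 162 of 1452 other regions (11.2%, 9.58 to 12.9), a difference that was not tested. κB matches were found in 13 of these 36 members (36.1%) and in 55 of the other 148 (37.2%). In the 1-copy regions alone the κB odds ratio was 0.27 and the FOSL1 odds ratio 0.43.

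Acetylation before treatment was less frequent at members as well. An H3K27ac peak of vehicle-treated cells lay within 500 bp of the summit in 107 of 184 members (58.2%, 50.7 to 65.4) and 1094 of 1452 other regions (75.3%, 73.0 to 77.5), where 73.4% of all regions had one. The odds ratio was 0.45 (0.33 to 0.63), with adjusted p = 3.14e-06 by Fisher's exact test. The median fold enrichment of those H3K27ac peaks was 3.10 in members and 3.12 in other regions.

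Members with and without FOSL1 differed in their shares of basal acetylation, which were not tested. Of the members with FOSL1, 69 of 78 had H3K27ac in vehicle (88.5%, 79.2 to 94.6), and of those without, 38 of 106 did (35.8%, 26.8 to 45.7). In the other RELB regions the shares were 860 of 964 (89.2%) and 234 of 488 (47.95%). By κB match, 35 of 68 members with one (51.5%) and 72 of 116 without one (62.1%) had basal acetylation.

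**Figure D3:**
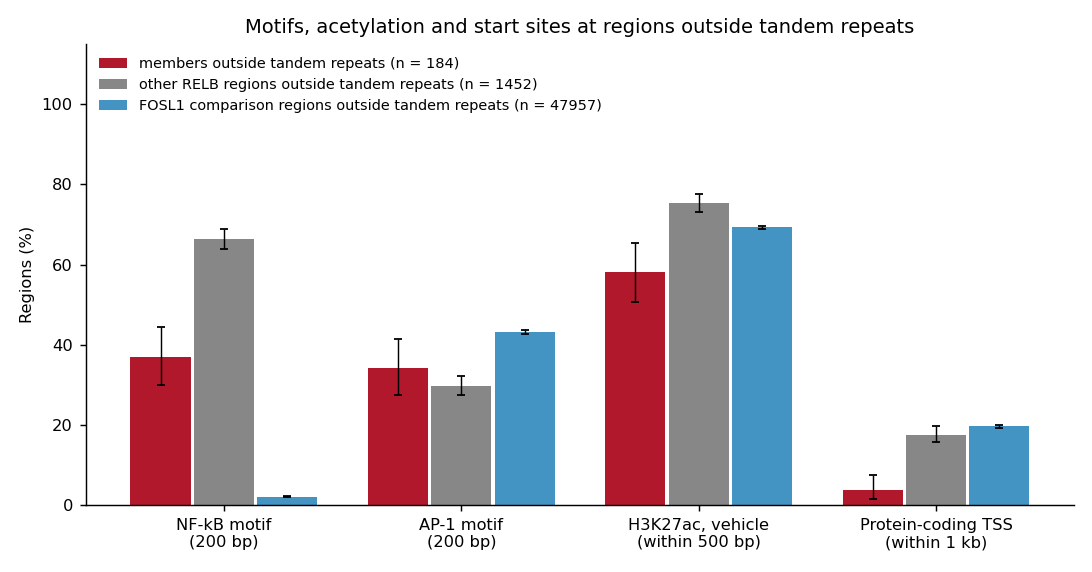
Share of regions (y axis, percent) with each feature on the x axis, outside tandem repeats, with exact 95% intervals over regions. Members were below the other RELB regions for the NF-κB match (37.0% against 66.5%), basal H3K27ac (58.2% against 75.3%) and start sites (3.80% against 17.6%), and the intervals overlapped for the AP-1 match.

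After treatment, the share of members with H3K27ac within 500 bp of the summit was 101 of 184 after 30 min of TNFα (54.9%, against 79.4% of all RELB regions outside tandem repeats), 124 after 6 h of TNFα (67.4%, against 84.5%), 86 after 30 min of TWEAK (46.7%, against 70.2%) and 120 after 6 h of TWEAK (65.2%, against 77.9%). At 6 h of TWEAK, 17 members had gained a peak relative to vehicle (9.24%, against 6.05% of all regions) and 4 had lost one (2.17%, against 1.59%). The ratio of gained to lost was 4.25 in the members and 3.81 in all RELB regions outside tandem repeats, with 1 merged list per condition, so the change between conditions has no replicate check. The direction depended on how a peak was assigned, at members and at the other RELB regions outside tandem repeats alike. Counting H3K27ac peaks that overlapped the RELB region itself, 9 members gained and 21 lost one, against 72 and 124 of 1452 other regions. With H3K27ac peaks of q at most 0.001, 7 members gained and 4 lost one, against 66 and 46 other regions. H3K27ac peaks had a median length of 627 bp after 6 h of TWEAK and 781 bp in vehicle.

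The other lists differed in the same count. After 6 h of TNFα, 20 members gained a peak within 500 bp (10.9%, against 11.5% of all regions) and 3 lost one (1.63%, against 0.43%). By overlap with the region, 18 gained and 7 lost one. After 30 min of TNFα, 8 gained (4.35%, against 8.62%) and 14 lost one (7.61%, against 2.63%). After 30 min of TWEAK, 2 gained (1.09%, against 2.93%) and 23 lost one (12.5%, against 6.11%). The FOSL1 comparison regions lost a peak in 13.1% after 30 min of TNFα and 11.4% after 30 min of TWEAK. The gains and losses at members after 30 min of either ligand and after 6 h of TNFα kept their direction under both assignments. By overlap, 8 members gained and 15 lost a peak after 30 min of TNFα, against 130 and 72 of the 1452 other RELB regions. After 30 min of TWEAK, 8 members gained and 20 lost one by overlap, against 75 and 97 other regions.

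Regions without basal acetylation were also taken alone. After 30 min of TNFα, 8 of 77 such members gained a peak (10.4%, 4.59 to 19.4), against 133 of 358 other RELB regions (37.2%, 32.1 to 42.4) and 817 of 14717 FOSL1 comparison regions (5.55%). After 6 h of TNFα the shares were 20 of 77 members (25.97%, 16.6 to 37.2) and 168 of 358 other regions (46.9%, 41.7 to 52.2). After 6 h of TWEAK they were 17 of 77 members (22.1%, 13.4 to 33.0), 82 of 358 other regions (22.9%, 18.7 to 27.6) and 1027 of 14717 comparison regions (6.98%). These shares were not tested against each other, and the lists share the vehicle list as their reference.

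**Figure D4:**
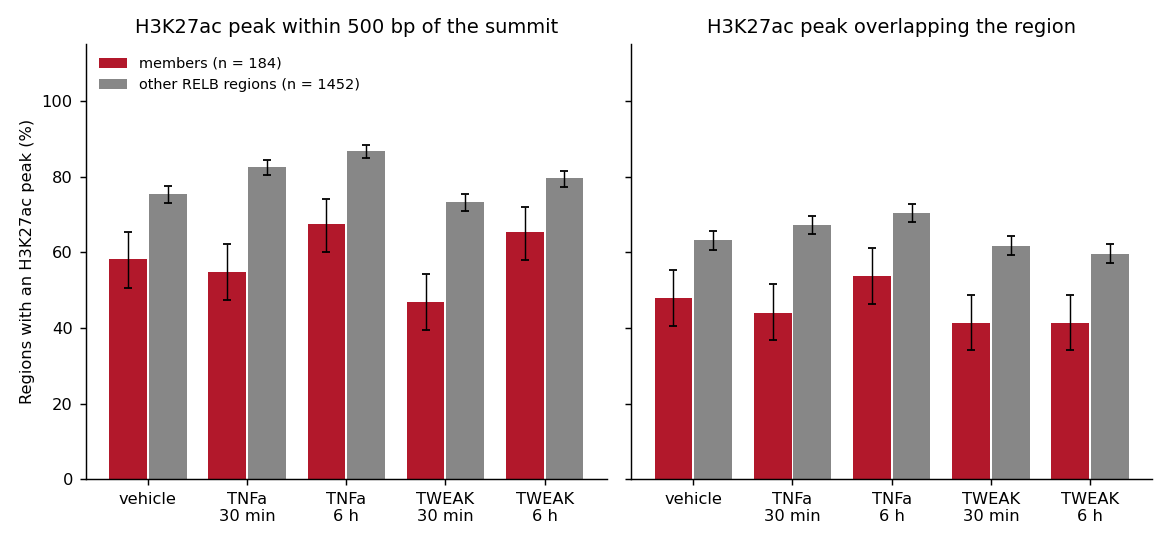
Share of members and of other RELB regions outside tandem repeats (y axis, percent) with an H3K27ac peak in each list (x axis), counted within 500 bp of the summit on the left and by overlap with the region on the right, with exact 95% intervals over regions. Members after 6 h of TWEAK were above vehicle on the left (120 against 107 of 184) and below it on the right (76 against 88).

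Across the 5 H3K27ac lists, 78 members had a peak in every one (42.4%) and 46 in none (25%). All RELB regions outside tandem repeats stood at 65.4% and 12.2%, and the FOSL1 comparison regions at 52.5% and 24.5%. Peaks in vehicle and both 6 h lists but neither 30 min list were found at 12 members (6.52%), against 17 of 1452 other regions (1.17%) and 2082 of 47957 FOSL1 comparison regions (4.34%). Peaks only in one or both of the 6 h lists were found at 22 members (11.96%), against 62 of 1452 other regions (4.27%) and 1693 comparison regions (3.53%). Only regions without a vehicle peak can enter this class, and these were 77 of 184 members but 358 of 1452 other regions. The shares of all regions therefore also carry the difference in basal acetylation.

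The class of 22 late-acetylated members rested on H3K27ac peaks within 500 bp of the summit and was not recounted by overlap with the region. Among these members, 9 had a peak after TNFα alone (4.89% of members, against 2.87% of all RELB regions outside tandem repeats). After TWEAK alone 7 had one (3.80%, against 0.55%), and after both ligands 6 did (3.26%, against 1.71%). A κB match was present in 13 of 22, against 37.0% of all members and 63.1% of all RELB regions. A FOSL1 peak was present in 6 of 22, against 42.4% and 63.7%. The 6 with H3K27ac after both ligands lay nearest to DCLK2, STPG4, PPP1R12A, TET2, TUT7 and TPTE. The DCLK2 region, in an intron of this kinase gene, had H3K27ac fold enrichments of 2.98 after TNFα and 2.60 after TWEAK. The TET2 region, 214955 bp from the start site of this DNA demethylation enzyme gene, had 2.68 and 4.17. The TPTE region was the weakest member of all by RELB fold enrichment, at 1.95, in sequence with a median of 5 copies. TLR10, a Toll-like receptor gene, was nearest to a member of RELB fold enrichment 7.64 with a κB match and H3K27ac after 6 h of TNFα alone, at 2.74.

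Members lay away from promoters. A protein-coding start site was within 1 kb of 7 of 184 members outside tandem repeats (3.80%, 1.54 to 7.68), of 256 of 1452 other regions (17.6%, 15.7 to 19.7) and of 9459 of 47957 FOSL1 comparison regions (19.7%). The odds ratio of members against other regions was 0.18 (0.07 to 0.40), with adjusted p = 1.20e-07 by Fisher's exact test. It was 0.49 for start sites within 5 kb and 0.33 where the RELB region had to be overlapped by at least 50% of its length to count as shared. The median distance to a start site was 41790 bp for members and 20614 bp for other regions. By GENCODE 44, 101 members were intergenic (54.9%, against 49.5% of all RELB regions outside tandem repeats), 76 in introns (41.3%, against 44.9%) and 7 in exons (3.80%, against 5.62%).

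The 7 start-site members were at TSACC, LARP1, WDR5, MAP2K3, SFTPB, ZNF267 and TM7SF3, 34 to 741 bp from the start. Their RELB fold enrichments were between 4.68 and 6.32. LARP1, an RNA-binding regulator of translation, had the highest FOSL1 value of the 7, at 14.8. SFTPB, the surfactant protein B gene, was the one with a κB match. MAP2K3 encodes a kinase upstream of p38, and WDR5 a core subunit of histone methyltransferase complexes.

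Genes of the NF-κB system were not near members. No member outside tandem repeats lay within 50 kb of a start site of any of 5 NF-κB subunit genes, 11 IκB and feedback inhibitor genes, 21 TNFα, TWEAK and lymphotoxin receptor and signaling genes, 36 cytokine and chemokine genes, 12 AP-1 genes, 18 survival and apoptosis genes or 12 TEAD and YAP genes. Other RELB regions lay within 50 kb of 5, 7, 7, 12, 5, 7 and 0 of them, respectively. Of all 19618 protein-coding genes, 208 had a member within 50 kb (1.06%) and 1852 another RELB region (9.44%). At a share of 1.06%, lists of this size would hold few genes or none, so the zeros say little about these lists.

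In the remaining lists, 3 of 22 adhesion, protease and matrix genes had a member, which was 1 region shared by ICAM1, ICAM4 and ICAM5, and 1 of 7 EGFR and ligand genes did, HBEGF. The ICAM region lay on chromosome 19 at 10260056 to 10260194, 10988 bp upstream of ICAM1, the leukocyte adhesion receptor gene. Its nearest protein-coding start site was that of MRPL4, at 5485 bp. It had a RELB fold enrichment of 5.09, no FOSL1 peak, and H3K27ac in every list but that of 30 min of TWEAK. HBEGF, which encodes an EGFR ligand, had a member of 4.68 at 23708 bp downstream of its start with H3K27ac in all 5 lists.

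The gene sets that the study derived by RNA-seq of pancreatic cancer cell lines were read against the same 1.06% of all protein-coding genes. Of 626 common genes, a set that the study combined with its TWEAK-specific genes, 490 were matched to the annotation. Of these 490, 6 had a member within 50 kb (1.22%), among them ANXA2, ARL14, HPCAL1, ICAM1 and IL7R. Of 310 TNFα-specific genes, 263 were matched, and 5 of these had a member within 50 kb (1.90%), namely ANTKMT, CCDC78, DUSP14, MST1R and PRR12. ANTKMT and CCDC78 shared the same region, the member nearest to METRN. The shares with another RELB region were 93 of 490 (19.0%) and 77 of 263 (29.3%). IL7R, the interleukin 7 receptor gene, had a member of 6.08 with FOSL1 at 7.74, and DUSP14, a MAP kinase phosphatase gene, one of 8.32 with FOSL1 at 3.58.

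The 189 members in tandem repeats were also weaker than the other RELB regions there. Their RELB fold enrichment had a median of 4.79 and a highest value of 7.40, against a median of 5.77 and a highest value of 31.3 for the other 2213 regions in tandem repeats. The best-matching shift was within 3 bp of 171 in 50 members and between 336 and 348 bp in 118, which together were 168 of 189 (88.9%), against 1853 of 2213 other regions (83.7%). Alpha satellite, the repeat of human centromeres, has a unit of the first of these lengths. Of the 189, 177 were intergenic (93.7%, against 96.9% of the other RELB regions in repeats), 148 lay over 1 Mb from a protein-coding start site (78.3%, against 76.0%), and 187 had a median word copy number above 1 (98.9%, against 98.2%). Chromosomes 18, 5 and 17 held the most, with 25, 21 and 20.

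The second strongest repeat member, with a fold enrichment of 6.97, shows this structure. The 80 bases at its summit are printed with the 80 bases 1 period of 340 bp further on, with capitals at the 70 of 80 positions where both have the same base.
Summit (chr10:41256789-41256868): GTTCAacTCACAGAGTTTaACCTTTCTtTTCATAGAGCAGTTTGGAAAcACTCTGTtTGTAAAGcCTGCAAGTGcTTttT
1 period on (chr10:41257129-41257208): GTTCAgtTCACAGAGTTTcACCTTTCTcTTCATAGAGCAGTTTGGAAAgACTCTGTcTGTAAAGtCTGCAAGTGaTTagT
Neither stretch holds a κB or an AP-1 match, and none of the 189 repeat members did within 100 bp of the summit, which allows a share of up to 1.93% by the exact interval. Among the other 2213 regions in tandem repeats 24 had a κB match (1.08%).

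In the 5 further RELA and RELB lists, the shares of repeat members lay between those of members outside repeats and of all RELB regions in repeats. RELA after 30 min of TWEAK overlapped 13 of 189 (6.88%, against 63.6% of all RELB regions in tandem repeats) and RELA after 6 h of TWEAK 35 (18.5%, against 76.4%). RELB after 30 min of TNFα overlapped 22 (11.6%, against 73%), RELB after 6 h of TNFα 27 (14.3%, against 76.4%) and RELB after 30 min of TWEAK 20 (10.6%, against 65.7%). At least 1 of the 5 lists overlapped 76 of 189 repeat members (40.2%, 33.2 to 47.6), against 10 of 184 members outside repeats. An excluded-list region lay within 1000 bp of 57 repeat members and of 8 members outside repeats. Reads from such copies cannot be placed with certainty, and how the authors treated them is not given in the sources used here.

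FOSL1 overlapped 87 repeat members (46.0%, against 89.3%), and H3K27ac in vehicle lay near 31 (16.4%, against 56.3%). H3K27ac was gained near 25 repeat members after 30 min of TNFα (13.2%, against 15.8%) and 11 after 6 h of TNFα (5.82%, against 11.9%). It was gained near 24 after 30 min of TWEAK (12.7%, against 16.4%) and 8 after 6 h of TWEAK (4.23%, against 9.95%). Losses near repeat members numbered 5, 11, 8 and 12 in the same order. These were 2.65%, 5.82%, 4.23% and 6.35%, against 4.95%, 7.58%, 4.95% and 9.49% of all RELB regions in repeats. Like the repeat members, all RELB regions in repeats had more gains at 30 min (380 and 394) than at 6 h (285 and 239). The strongest repeat member was on chromosome 14 at 17887263 to 17887410, with a fold enrichment of 7.40 and no peak in any other list examined. The region on chromosome 7 at 59875668 to 59875795, with 6.84, was in 4 of the 5 further lists, at 7.71 for RELA after 6 h of TWEAK, 5.05 and 5.46 for RELB after 30 min and 6 h of TNFα and 6.90 for RELB after 30 min of TWEAK. The member near OTULIN, the gene of a linear ubiquitin deubiquitinase, had 6.88 and was in RELB after 30 min of TNFα at 5.49.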

How the data were processed

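Chromatin of L3.6pl cells was analysed from 16 deposited peak lists, 11 narrow and 5 broad (H3K27ac), 1 per condition. Per the submitters' processing notes, the authors used Bowtie2 2.5.0, SAMtools 1.18, deepTools 3.3.2 and MACS2 (version not given in the sources used here) with hg38, and peaks were called on merged replicates. The values used were the deposited fold enrichment (a linear ratio) and −log10 q of each peak; 16 columns of −log10 p were not used. The members and lists were chosen with earlier results of these data known.

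Regions on chromosomes 1 to 22 and X were compared by overlap of at least 1 bp. A region was placed in a tandem repeat where the 1000 bp around its summit matched itself at 0.4 or more of positions at some shift of 1 to 400 bp. Motifs were searched on both strands in 200 bp around the summit of the hg38 sequence. The NF-κB consensus was the 10-letter form GGGRNWYYCC (R is A or G, W is A or T, Y is C or T, N is any base). Elements that deviate from it were not counted as κB matches, so a region without a match may still hold a κB site. H3K27ac peaks were assigned within 500 bp. Start sites came from GENCODE 44. Word copy numbers were counted for 31-base words in the reference. Shares carry exact Clopper-Pearson 95% intervals, which cover counting of regions only. The rule separated members from the other RELB regions by RELA and RELB calls, so tests between them are not independent of it. Fisher's exact test compared members with other RELB regions outside tandem repeats, the exact McNemar test compared gained with lost H3K27ac (its p is not given, since each condition has 1 merged list), and p-values were adjusted over all 6 tests (threshold 0.05; Python 3.11.15, scipy 1.17.1, statsmodels 0.14.6). Functions were tested on simulated data, and overlaps were checked with bedtools 2.31.1. The named regions were the 12 strongest members outside and 4 in tandem repeats, members within 50 kb of a listed gene, and members in the most further lists. Late-acetylated members, start-site members and those with the commonest κB variant were chosen after their values were seen. Of the named regions, 1 is not reported here.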

Additional observations from a re-analysis of the deposited data

How the results depend on the processing

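Of 56 planned and 6 added alternatives, 57 left a result in the same direction, on the same side of the threshold of 0.05 or near its value. The added ones kept only regions whose 31-base words occur in 1 copy and were chosen after seeing the data. The ratio of H3K27ac gained against lost at 6 h of TWEAK, 4.25, fell below 1 when peaks had to overlap the RELB region (0.43) and was 1.75 with H3K27ac peaks of q at most 0.001. The AP-1 odds ratio, 1.23, was 1.52 within 5 equal bins of RELB fold enrichment. The start-site odds ratio, 0.18, was 0.49 at 5 kb and 0.33 with the stricter overlap for shared regions. The share of members in tandem repeats, 50.7%, was 44.8% with a self-match limit of 0.5 and 37.1% in RELB regions of fold enrichment of at least 5. The cause of these changes was not tested. The number of members outside tandem repeats stayed between 146 and 206. No paired analysis was possible because each condition has 1 list of merged replicates, and for the same reason no replicate could be left out. Without read depth, it is unknown how far regions missing from a list reflect its depth.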
